A study of Mus musculus with 24 samples.

Results

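Guanylate-binding proteins (GBPs) and immunity-related GTPases (IRGs) are large and small GTPases that macrophages make after interferon and that gather on pathogens and on the vacuoles that hold them. The 10 genes described here were 5 GBPs, *Gbp2*, *Gbp3*, *Gbp4*, *Gbp5* and *Gbp7*, and 5 IRGs, *Iigp1*, *Igtp*, *Irgm1*, *Irgm2* and *Gm4841*. They were taken by gene symbol, and all 10 were present among the 56691 genes of each deposited table. In the knockout bone marrow-derived macrophages (BMDM), all 10 lay below wild type both before and after lipopolysaccharide (LPS). Before LPS 7 passed the test as lower, beside 0.916% of all tested genes, and after LPS 4 passed, beside 1.53%. After LPS the distance shrank for *Irgm1* and *Irgm2*, while *Iigp1*, *Gbp4* and *Gm4841* were left at 21.2%, 32.0% and 17.6% of the wild-type level.

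The libraries came from macrophages labelled wild type or knockout for *Olfml3*, a secreted olfactomedin-family protein gene, in 2 models. RAW264.7 is a mouse macrophage-like leukaemia line, and its knockout cells were single-cell clones made with CRISPR and lentiviral guide delivery. How many clones gave the libraries was not stated in the text used here, so clone and genotype cannot be told apart. BMDM were grown for 6 days with L929 supernatant from 8-week-old male C57BL/6 mice, wild type or lacking *Olfml3* in the whole body. Each was given phosphate-buffered saline (PBS) or LPS at 100 ng/mL for 4 h, with 3 libraries in each of 8 groups and 24 in all. The genotype field contradicted the sample title in 12 of 24 libraries, and groups were taken from the titles. Whether the 3 libraries of a group were separate cultures or separate animals was not stated, so each p-value measures spread between libraries.

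GBPs bind to bacterial and vacuolar membranes and feed the inflammasomes that sense cytosolic LPS. IRGs split into effectors, here *Iigp1* and *Gm4841*, which load onto vacuoles, and the regulators *Irgm1*, *Irgm2* and *Igtp*, which keep effectors off the cell's own membranes. The IRG GTPases are a different family from the aconitate decarboxylase once named IRG1.

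Sequencing depth was 11638273 to 16478616 counts per library in RAW264.7 and 17121240 to 22873094 in BMDM. Levels are given as FPKM, fragments scaled to gene length and library size, and differences as log2 fold changes of FPKM + 0.1 from limma. A gene passed when its Benjamini-Hochberg adjusted p was under 0.05 and its fold change at least 1.5. Adding 0.1 understates the fold change of genes with low FPKM, so for members near 0 a ratio of counts or of means is also given. The RAW264.7 and BMDM tables were tested apart, and no test compared them.

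*Olfml3* itself was read first. In BMDM its level was 0.61, 0.53 and 0.65 FPKM in the wild-type PBS libraries and 0.03, 0.01 and 0.01 in the knockout, 2.8% of wild type and a log2 difference of -2.58 (limma, Benjamini-Hochberg adjusted p 2.33e-07). With LPS the BMDM counts were 1 in the knockout against 102 in wild type, a ratio of 94.0 with a counting interval of 16.5 to 3750. In RAW264.7 *Olfml3* went the other way: the libraries labelled knockout held 0.65, 1.01 and 1.19 FPKM with PBS against 0.19, 0.15 and 0.15 in wild type. With LPS they held 18.93, 18.77 and 18.33 FPKM against 0.13, 0.13 and 0.29. The log2 differences were 1.96 with PBS, 2.19 without the first labelled-knockout PBS library, and 6.10 with LPS. The RAW264.7 libraries are therefore called labelled knockout below, since the *Olfml3* transcript did not fall with the label. The authors describe Sanger sequencing of the alleles of their clones, which was not analysed here, and a transcript level does not tell whether protein is made.

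One library stood apart from its group. Labelled-knockout RAW264.7 PBS replicate 1 had a mean correlation of 0.964 with its own group and 0.973 with wild-type PBS. Its chi-square per degree of freedom was 80.3 and 81.1 against replicates 2 and 3, which differed from each other by 2.28. Most RAW264.7 member differences and list counts by limma that rest on it are given with and without it. Group levels, sums, medians, ratios of counts and the other tools include it. In BMDM the wild-type LPS libraries were the most uneven, at 10.4, 8.5 and 4.76, beside 1.76 to 2.68 in the other BMDM groups.

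All 7 member genes with a promoter in the RefSeq set used here (GRCm38.p6, 250 bases before to 50 after the annotated start) carried the core of an interferon-stimulated response element (ISRE), GAAANNGAA on either strand. That core occurred in 8.56% of 32851 starts, and in 7 of the 8 starts of these genes. The core of a gamma-activated site (GAS), TTCNNNGAA, occurred in 8.3% of starts and in 4 of the 7 genes: *Gbp5*, *Gbp7*, *Igtp* and *Irgm2*. The 7 stretches are printed because they carry the ISRE core of each gene. Capitals mark the cores, and the 4 GBP stretches show the ISRE on the reverse strand, as its complement.
Gbp5, chr3:142496760-142496789 (+): cttgtgtagtTTCAATTTCagtttagagaa
Gbp7, chr3:142530274-142530303 (+): tgtgtgcagtTTCAGTTTCagttctccatc
Gbp3, chr3:142559993-142560022 (+): acacagtTTCAGTTTCTATTTCccagatcc
Gbp2, chr3:142620595-142620624 (+): ctcttttagtTTCACTTTCactgtcttaag
Irgm1, chr11:48871428-48871457 (-): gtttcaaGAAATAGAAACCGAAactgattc
Igtp, chr11:58199506-58199535 (+): gccatTTCTAGGAActGAAACTGAAagctg
Irgm2, chr11:58214897-58214926 (+): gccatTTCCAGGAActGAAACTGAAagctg
*Igtp* and *Irgm2* shared 29 of 30 bases, with a GAS core 2 bases before the ISRE core in both. *Gbp3* and *Irgm1* each carried a pair of overlapping ISRE cores. Binding of a factor to any of these sites was not measured.

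**Figure D1:**
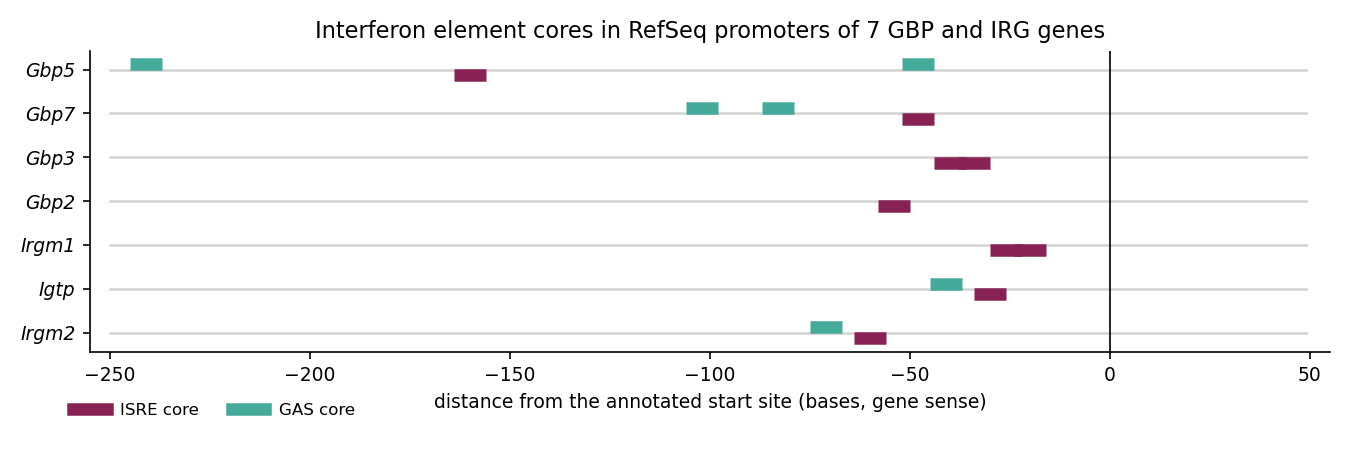
Positions of ISRE and GAS cores relative to the annotated start in the 7 member genes with a RefSeq promoter. ISRE cores lay within 64 bases of the start in 6 of the 7, and in Gbp5 the core lay at -164.

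Resting BMDM already expressed most of the family, and the knockout libraries held less of it. The 3 highest members, *Gbp2*, *Irgm1* and *Irgm2*, fell to between 33.6% and 49.5% of wild type. The effector *Iigp1* and the scarce *Gbp4* fell to similar shares, while *Gbp5* and *Gbp7* did not pass. The fall thus reached GBPs, regulatory IRGs and an effector IRG, before any bacterial product was added.

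In BMDM with PBS, 7 of 10 members were lower in the knockout and passed, beside 0.916% of 26973 tested genes lower and 0.901% higher. The median log2 difference of the members was -0.94, beside 0.01 for all genes. edgeR and DESeq2 on counts also called 7 members lower, beside 277 of 14057 and 259 of 12365 tested genes. Limma with pseudocount 1 called 6, without *Gbp4* (-0.26), beside 149 of 26973 genes. All 10 differences were negative under TPM and median-ratio scaling too.

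*Irgm1*, the regulator that restrains effector IRGs, had a log2 difference of -1.56, the largest with 0.1 added, while *Gbp4* (31.9% of wild type) and *Iigp1* (32.2%) had slightly lower ratios than *Irgm1* (33.6%). Its level was 18.84, 21.76 and 18.73 FPKM in wild type and 6.3, 7.16 and 6.51 in the knockout (limma, Benjamini-Hochberg adjusted p 1.51e-06). The groups did not overlap, and all 3 knockout libraries were lower than every wild-type library. *Gbp2*, a GBP that coats bacteria and vacuoles, went from 20.86, 22.14 and 19.61 FPKM to 10.21, 10.5 and 10.32, a log2 difference of -1.0 (limma, adjusted p 3.1e-06). Its libraries did not overlap between genotypes either. *Irgm2* dropped from a mean of 18.4 FPKM (SD 0.72) to 9.1 (SD 0.307), log2 -1.0. *Igtp* dropped from 14.4 (SD 1.27) to 7.81 (SD 0.356), log2 -0.88. The 3 regulatory IRGs were thus all lower, with *Irgm1* the most reduced of them.

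*Iigp1*, an effector IRG, was at 1.37, 1.67 and 1.38 FPKM in wild type and 0.47, 0.6 and 0.35 in the knockout. The log2 difference was -1.47 with adjusted p 0.000397 (limma), and the libraries did not overlap. *Gbp3* dropped from 9.49 to 5.67 FPKM in mean level (log2 -0.73), and *Gbp4* from 0.313 to 0.1 (log2 -1.06). *Gbp5* and *Gbp7* were lower in all 3 knockout libraries, at 83.7% and 74.7% of wild type. Their folds stayed under 1.5, with adjusted p 0.0346 and 0.00859 (limma), so neither passed. *Gm4841* counted 4 fragments over the wild-type group and none over the knockout, at least 1.25-fold lower at a floor of 3 counts (0.0171 FPKM), and its libraries overlapped.

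The order of levels in resting BMDM shifted with genotype. In wild type *Gbp2*, *Irgm1* and *Irgm2* were highest, with libraries of *Irgm1* overlapping those of both others. After them came *Igtp*, then *Gbp3* and *Gbp7* overlapping, then *Gbp5*, *Iigp1*, *Gbp4* and *Gm4841*. In the knockout *Gbp2* was highest, followed by *Irgm2* and *Igtp*, and *Irgm1* came after them with libraries that overlapped those of *Gbp7*. Summed over members, GBP level went from 42.6 FPKM (SD 1.54) to 25.3 (SD 0.478), and IRG level from 54.1 (SD 3.78) to 24 (SD 0.762).

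**Figure D2:**
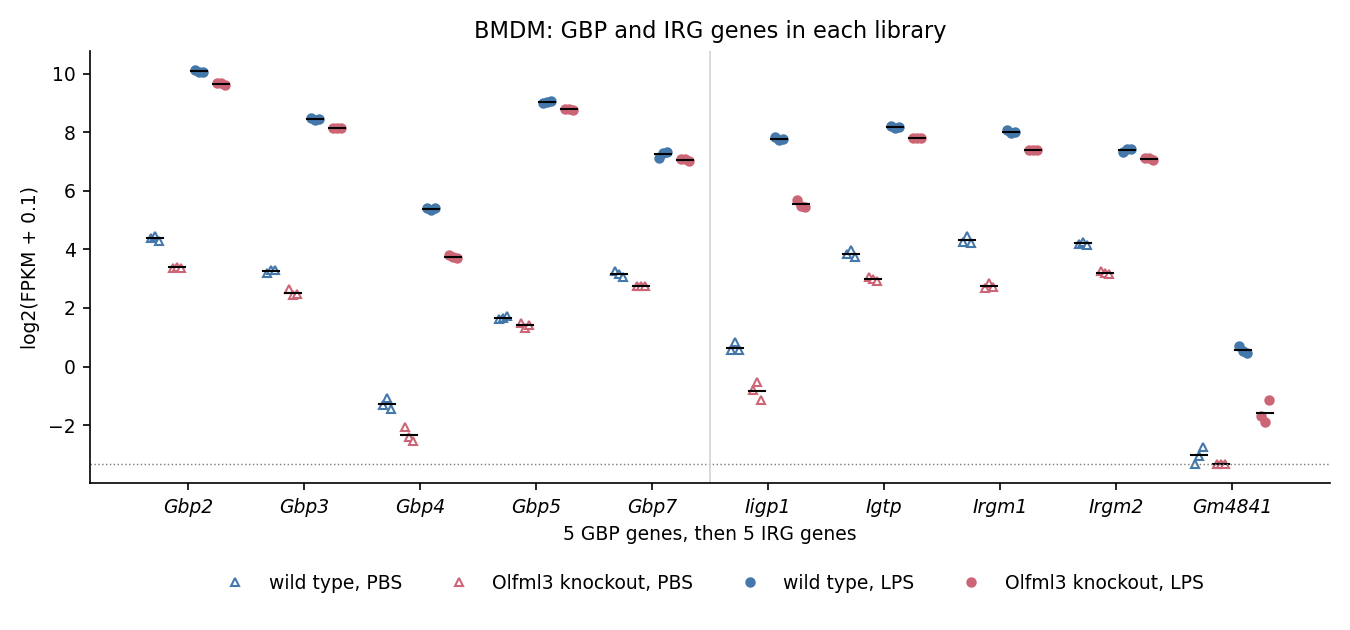
Level of each member in the 12 BMDM libraries, as log2 of FPKM + 0.1, with PBS as open triangles, LPS as filled circles, wild type in blue, knockout in red and group means as black bars. The knockout lay lower for all 10 genes in both conditions, under every scaling tried, with overlap between genotypes for Gm4841 with PBS alone. The share of all genes without overlap is not given.

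LPS raised the whole family in BMDM, in wild type and in knockout alike. *Gbp5* climbed the most and became the second most abundant member after *Gbp2*. *Iigp1* and *Gbp4*, at means of 1.47 and 0.313 FPKM in resting wild type, rose about 100-fold or more. The regulators *Irgm1* and *Irgm2* started high, and *Irgm2* had the smallest ratio of LPS to PBS in wild type.

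All 10 members passed as higher with LPS in wild-type BMDM, beside 7.94% of genes, and all 10 in the knockout, beside 8.02% (9 with pseudocount 1, without *Gm4841* at 0.31). The median log2 rise was 4.77 in wild type and 5.23 in the knockout, beside -0.30 and -0.28 for all genes. Among genes of at least 1 FPKM those all-gene medians were -0.73 and -0.62, a shift that median-ratio scaling removes and against which the member rises are large.

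*Gbp5*, which promotes inflammasome assembly, had mean levels of 3.06 FPKM with PBS and 528 with LPS in wild type, a ratio of 173 (log2 7.38, limma, Benjamini-Hochberg adjusted p 3.51e-12). In the knockout it went from 2.56 to 443 FPKM, a ratio of 173 and log2 7.38. *Gbp2* reached 1111.57, 1075.18 and 1074.34 FPKM in wild type and 820.19, 822.73 and 793.86 in the knockout, 52.2 and 78.8 times its PBS mean. *Gbp2* was the most abundant member with LPS in both genotypes, with no overlap with *Gbp5*. *Gbp4* rose 134-fold in both genotypes, and *Iigp1* 150-fold in wild type and 98.7-fold in the knockout. *Gbp3* rose 37.4-fold and 50.3-fold, and *Gbp7* 17.3-fold and 20.3-fold.

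Among the regulatory IRGs, *Igtp* rose 20.1-fold in wild type and 28.8-fold in the knockout. *Irgm1* rose 13.1-fold and 25.4-fold, and *Irgm2* 9.08-fold and 15.2-fold. All 3 started lower in the knockout and had the larger ratio there, a difference that passed its own test for *Irgm1* and *Irgm2* (below). *Gm4841*, an IRG gene nearly absent at rest, reached 1.52, 1.35 and 1.28 FPKM in wild type, log2 3.60 against PBS. In the knockout it reached 0.21, 0.17 and 0.35 FPKM, at least 13.7-fold above the floor and log2 1.75.

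With LPS the knockout BMDM still held less of every member, and the size of the gap again differed widely by gene. *Iigp1*, *Gbp4* and *Gm4841* were far below wild type. *Irgm1* kept part of its gap, and *Gbp2*, *Gbp3*, *Gbp5* and *Gbp7* lay between 74.5% and 87.6% of wild type. The comparison shares its libraries with the LPS response above.

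In this comparison 4 of 10 members were lower and passed, beside 1.53% of genes lower and 3.23% higher. The member median was -0.39 in log2, beside 0.04 for all genes. edgeR and DESeq2 also called 4 lower, beside 647 of 14057 and 621 of 13939 tested genes lower. With adjusted p under 0.05 alone the count was 9, every member but *Gbp7*, beside 1132 genes lower and 3672 higher of 26973.

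*Iigp1* was at 226.97, 212.32 and 219.84 FPKM in wild type and 51.59, 44.82 and 43.82 in the knockout, log2 -2.23 (limma, Benjamini-Hochberg adjusted p 2.16e-05). The libraries did not overlap, and this effector sat above *Irgm2* in wild type but below *Gbp7* in the knockout. *Gbp4*, scarce at rest, was at 42.51, 40.47 and 42.69 FPKM against 14, 13.21 and 12.95, log2 -1.64 (adjusted p 4.26e-05, limma). Its libraries did not overlap. *Gm4841* had a log2 difference of -2.14, again without overlap. *Irgm1* dropped from 260 (SD 9.47) to 169 FPKM (SD 0.923), log2 -0.62 and 65.0% of wild type.

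The 6 remaining members were lower in 3 of 3 knockout libraries without reaching a fold of 1.5. *Gbp2* stood at 74.5% of wild type (log2 -0.42), *Igtp* at 77.6% (log2 -0.37) and *Gbp3* at 80.3% (log2 -0.32). *Irgm2* stood at 82.6% (log2 -0.28), *Gbp5* at 83.9% (log2 -0.25) and *Gbp7* at 87.6% (log2 -0.18). Their adjusted p ran from 0.000494 for *Gbp2* to 0.106 for *Gbp7* (limma), so the gap was small but steady for most. In wild type the order was *Gbp2*, *Gbp5*, *Gbp3*, *Igtp*, *Irgm1*, *Iigp1*, then *Irgm2* and *Gbp7* with overlapping libraries, then *Gbp4* and *Gm4841*. The knockout kept that order except that *Iigp1* moved below *Irgm2* and *Gbp7*, which again overlapped. Summed GBP level was 2160 FPKM (SD 13.3) in wild type and 1690 (SD 25.9) in the knockout, and summed IRG level 939 (SD 19.2) and 579 (SD 7.6).

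Whether the genotype gap itself changed with LPS was tested as an interaction, the genotype difference with LPS minus that with PBS. For *Irgm1* and *Irgm2* the gap narrowed. For *Gm4841* it widened on the log2 scale of FPKM + 0.1. *Iigp1* did not pass with limma but was called wider by edgeR and DESeq2, and *Gbp4* passed with none of the 3 tools.

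In BMDM the interaction passed for 2 members upward and 1 downward, beside 1.91% and 1.02% of genes. The member median was 0.32 in log2, beside 0.05 for all genes. *Irgm1* had 0.93 (limma, Benjamini-Hochberg adjusted p 0.000784) and *Irgm2* 0.72 (adjusted p 0.000464, limma), both positive because the gap narrowed. *Gm4841* had -1.86 with adjusted p 0.00384 (limma), but this value depends on the 0.1 added to a level of 0: edgeR gave 0.55 and DESeq2 0.11, neither called. *Gbp2* had 0.58 and adjusted p 0.00167, just short of the fold of 1.5. It passed when wild-type PBS replicate 3 (0.63), knockout PBS replicate 2 (0.59), wild-type LPS replicate 1 (0.60) or knockout LPS replicate 3 (0.60) was left out, and with TPM scaling (0.60) or pseudocount 0.01 (0.59). In the last 2 settings *Gm4841* lost its call, at -1.68 and -1.13. *Iigp1* had -0.76 (adjusted p 0.068, limma), while edgeR and DESeq2 called it at -0.72 each. It also passed with either FPKM filter or the intensity trend (-0.76), median-ratio scaling (-0.93), pseudocount 1 (-1.46) or knockout PBS replicate 3 left out (-0.92). *Gbp4* had -0.58 (adjusted p 0.096, limma), a value that comes with the added 0.1: its ratio to wild type was 31.9% before LPS and 32.0% after. It passed with pseudocount 1 (-1.32), median-ratio scaling (-0.82) or knockout PBS replicate 3 left out (-0.69), and had -0.15 with edgeR and DESeq2. *Igtp* (0.51, adjusted p 0.0124) and *Gbp3* (0.42, adjusted p 0.0178) had folds under 1.5, and *Gbp7* (0.23) and *Gbp5* (0.00 after rounding) did not pass. *Gbp5*, at 83.7% of wild type before LPS and 83.9% after, kept the same distance.

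**Figure D3:**
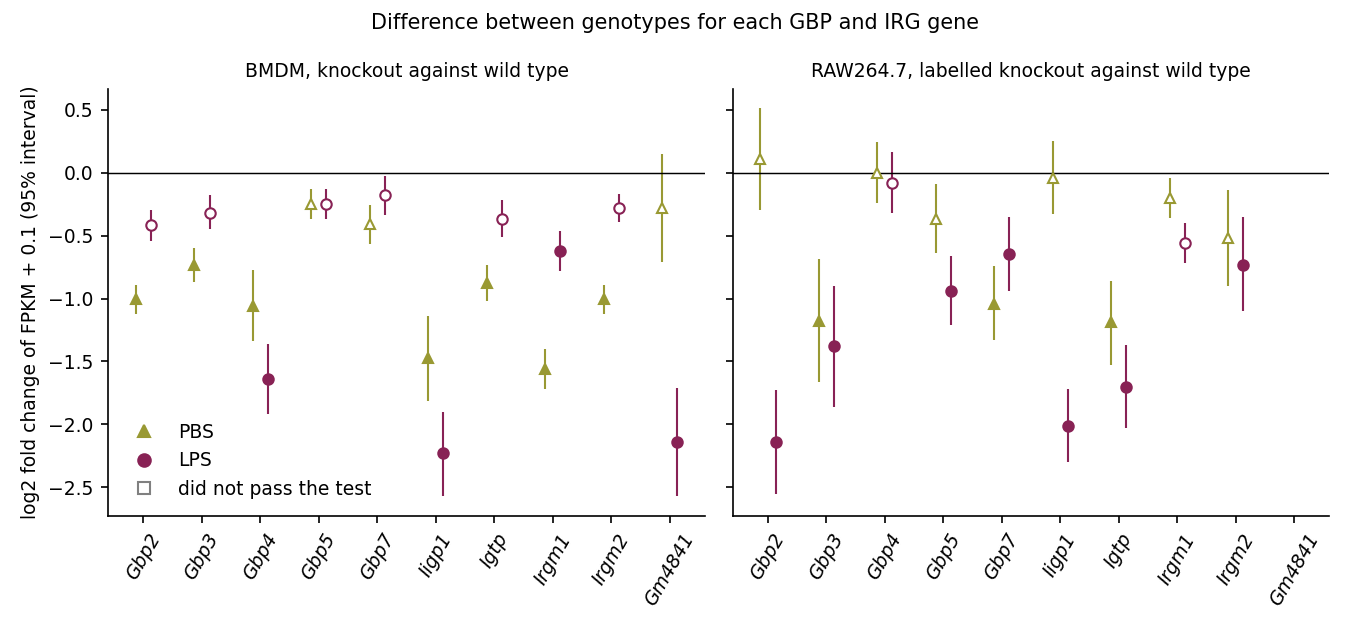
Log2 fold change between genotypes for each member with its 95% interval, PBS as triangles and LPS as circles, filled where the test was passed. BMDM differences were negative for all 10 genes under every scaling, largest with LPS for Iigp1 (-2.23) and Gm4841 (-2.14), and Gm4841 was absent from RAW264.7.

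RAW264.7 cells at rest held little of this family. *Irgm1* was the one member above 2 FPKM with PBS, and several members had only a handful of counts. The labelled-knockout libraries were lower in *Gbp3*, *Gbp7* and *Igtp*. *Gm4841* was listed at 0 in all 12 RAW264.7 libraries and was not tested.

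With PBS, 3 of 9 tested members were lower in labelled-knockout RAW264.7, beside 3.77% of 26740 tested genes lower and 4.79% higher. The member median log2 difference was -0.37, beside 0.02 for all genes. It was -1.18 over 6 members, with *Gbp5* at its bound, *Gbp7* at its count ratio, and *Gbp2*, *Gbp4* and *Iigp1* left out. edgeR and DESeq2 each called 5 lower, adding *Gbp5* and *Irgm2*, beside 1217 of 13639 and 1292 of 17439 tested genes lower. Without replicate 1 of the labelled knockout the same 3 passed with limma, beside 2140 genes lower and 3356 higher.

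*Igtp* was at 1.59, 1.35 and 1.09 FPKM in wild type and 0.42, 0.62 and 0.55 in the labelled knockout, log2 -1.19 (limma, Benjamini-Hochberg adjusted p 0.000849). Its libraries did not overlap, and without replicate 1 the log2 difference was -1.06. *Gbp3* was at 0.28, 0.21 and 0.16 FPKM against 0.09, 0.04 and 0, log2 -1.18 (adjusted p 0.00793, limma), and -1.40 without replicate 1. Its mean was 20% of wild type, 7 counts against 30, and its libraries did not overlap. *Gbp7* counted 2 fragments over the labelled-knockout group against 29, a rate 15.9 times lower with a counting interval of 4.03 to 138, log2 -1.04 and -0.99 without replicate 1. Such intervals cover counting error alone. *Gbp5* counted 0 against 8, at least 2.93-fold lower at a floor of 0.00965 FPKM.

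*Irgm1*, the most abundant member in resting RAW264.7, was at 86.4% of wild type (log2 -0.20, or -0.19 without replicate 1) and did not pass. *Irgm2* was at 63.3% with overlapping libraries (log2 -0.52, or -0.56 without replicate 1), and passed at -0.74 when wild-type PBS replicate 1 was left out. *Gbp2*, *Gbp4* and *Iigp1* had at most 3 counts in each PBS group, so no fold is given. *Irgm1* led the order in wild type, followed by *Igtp*, *Irgm2*, *Gbp3* and *Gbp7* without overlap, then the nearly absent members. In the labelled knockout *Igtp* and *Irgm2* overlapped. Summed IRG level was 5.72 FPKM (SD 0.361) in wild type and 4.17 (SD 0.12) in the labelled knockout, and summed GBP level 0.373 (SD 0.0153) and 0.0667 (SD 0.0586).

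LPS switched on most of the family in RAW264.7, from near zero for the GBPs. *Irgm1* stayed the most abundant member. *Gbp4* and *Gm4841* were not induced, although both rose in BMDM. Labelled-knockout libraries responded with the same 8 genes.

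In wild-type RAW264.7 8 of 9 tested members passed as higher with LPS, beside 5.8% of genes, and in the labelled knockout 8 of 9, beside 7.45%. The median log2 rise was 5.22 and 4.67, beside -0.05 and -0.07 for all genes. Over 8 members, without *Gbp4* and with low-count genes at their ratio of counts or bound, it was 5.95 and 5.73. Without labelled-knockout PBS replicate 1 the second count was 7, because *Iigp1* at log2 0.57 no longer reached a fold of 1.5. *Iigp1* also lost its call at 0.57 without PBS replicate 3 or LPS replicate 1, and at 0.48 without LPS replicate 2 of the labelled knockout. That value is set by the added 0.1. *Iigp1* went from 1 count over the PBS group to 12 over the LPS group. Its rate ratio was 15.2, with a counting interval of 2.24 to 648. edgeR and DESeq2 called 8 members higher here, beside 2406 of 13639 and 2684 of 18477 tested genes.

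*Irgm1* rose from a mean of 3.74 to 81.8 FPKM in wild type, 21.9-fold (log2 4.42, limma, Benjamini-Hochberg adjusted p 5.05e-10), and from 3.23 to 55.5 FPKM in the labelled knockout, 17.2-fold (log2 4.06, or 4.05 without PBS replicate 1). *Gbp3*, the leading GBP of this line, rose 145-fold in wild type. In the labelled knockout its log2 rise was 6.44, or 6.67 without PBS replicate 1. *Igtp* rose 32.9-fold and 25.5-fold, the second at log2 4.44, or 4.31 without PBS replicate 1. *Irgm2* rose 42.1-fold and 40.2-fold, the second at log2 5.02, or 5.05 without it. *Gbp3* had only 7 counts over the labelled-knockout PBS group, 0 of them in replicate 3, so its ratio there is loose.

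*Gbp2* went from 1 count over the wild-type PBS group to 1346 with LPS, a rate ratio of 1370 with a counting interval of 245 to 54100. In the labelled knockout it went from 2 to 264 counts, a ratio of 167 (45.7 to 1380), with log2 4.67, or 4.58 without PBS replicate 1. *Gbp5* rose 350-fold in wild type and at least 568-fold in the labelled knockout, where log2 was 5.79 with or without that library. *Gbp7* rose 106-fold in wild type, and in the labelled knockout went from 2 to 1677 counts, a ratio of 1060 (293 to 8750) with log2 6.26 (or 6.22 without PBS replicate 1). *Iigp1* went from 2 to 129 counts in wild type, a ratio of 65.6 (17.8 to 547). *Gbp4*, at most 3 counts in any RAW264.7 group, had log2 0.13 with adjusted p 0.497 (limma).

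With LPS the labelled-knockout RAW264.7 libraries held less of nearly every member that was expressed. *Gbp2*, *Iigp1* and *Igtp* showed the widest gaps. *Irgm1* and *Gbp7* showed the narrowest. PBS replicate 1 has no part in these group means, though it enters the shared variance.

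Here 7 of 9 tested members were lower and passed, beside 7.6% of genes lower and 9.73% higher. The member median was -0.94 in log2, or -1.16 over the 8 members other than *Gbp4*, beside 0.00 for all genes. edgeR called 8 lower and DESeq2 7, beside 2161 of 13639 and 2109 of 17958 tested genes lower. Limma after TPM scaling called 4. With pseudocount 0.01 limma lost the calls of *Gbp2* (-2.18), *Gbp3* (-1.39), *Gbp5* (-0.95) and *Gbp7* (-0.65), though their folds barely moved. *Iigp1* (-0.53) lost its call with pseudocount 1. TPM scaling moved the median log2 difference of genes at 1 FPKM or more from -0.02 to 0.22 and the passing genes to 1222 lower and 3658 higher. All 9 differences stayed negative with limma under each scaling.

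*Gbp2* was at 13.2, 12.32 and 12.81 FPKM in wild type and 3.38, 2.32 and 2.86 in the labelled knockout, log2 -2.14 (limma, Benjamini-Hochberg adjusted p 5.49e-05). Its libraries did not overlap, and its level was 22.3% of wild type. *Igtp* was at 43.15, 47.36 and 41.69 FPKM against 13.3, 13.7 and 13.41, log2 -1.70 (adjusted p 6.57e-05, limma), also without overlap. *Iigp1* was at 0.5, 0.57 and 0.51 FPKM against 0.06, 0.08 and 0.03, log2 -2.01 and 10.8% of wild type. It was the least abundant induced member of the line, so this gap concerned a trace transcript.

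*Gbp3* dropped from 31.4 (SD 1.15) to 12 FPKM (SD 0.718), log2 -1.38, and *Gbp5* from 10.5 (SD 0.19) to 5.47 (SD 0.672), log2 -0.94. *Irgm2* dropped from 26.8 (SD 1.28) to 16.2 FPKM (SD 1.14), log2 -0.73, and *Gbp7* from 12.7 (SD 0.899) to 8.07 (SD 0.42), log2 -0.65. Neither genotype overlapped the other for these 4. *Irgm1* stood at 67.8% of wild type, log2 -0.56 with adjusted p 0.000631 (limma), a fold just under 1.5. The order changed from *Irgm1*, *Igtp*, *Gbp3*, *Irgm2* in wild type to *Irgm1*, *Irgm2*, *Igtp*, *Gbp3* in the labelled knockout, without overlap among these 4. After them came *Gbp2* and *Gbp7* (overlapping), *Gbp5* and *Iigp1* in wild type, and *Gbp7*, *Gbp5*, *Gbp2* and *Iigp1* in the labelled knockout. Summed GBP level was 67.3 FPKM (SD 0.789) in wild type and 28.4 (SD 1.19) in the labelled knockout, and summed IRG level 153 (SD 3.5) and 85.2 (SD 0.262).

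**Figure D4:**
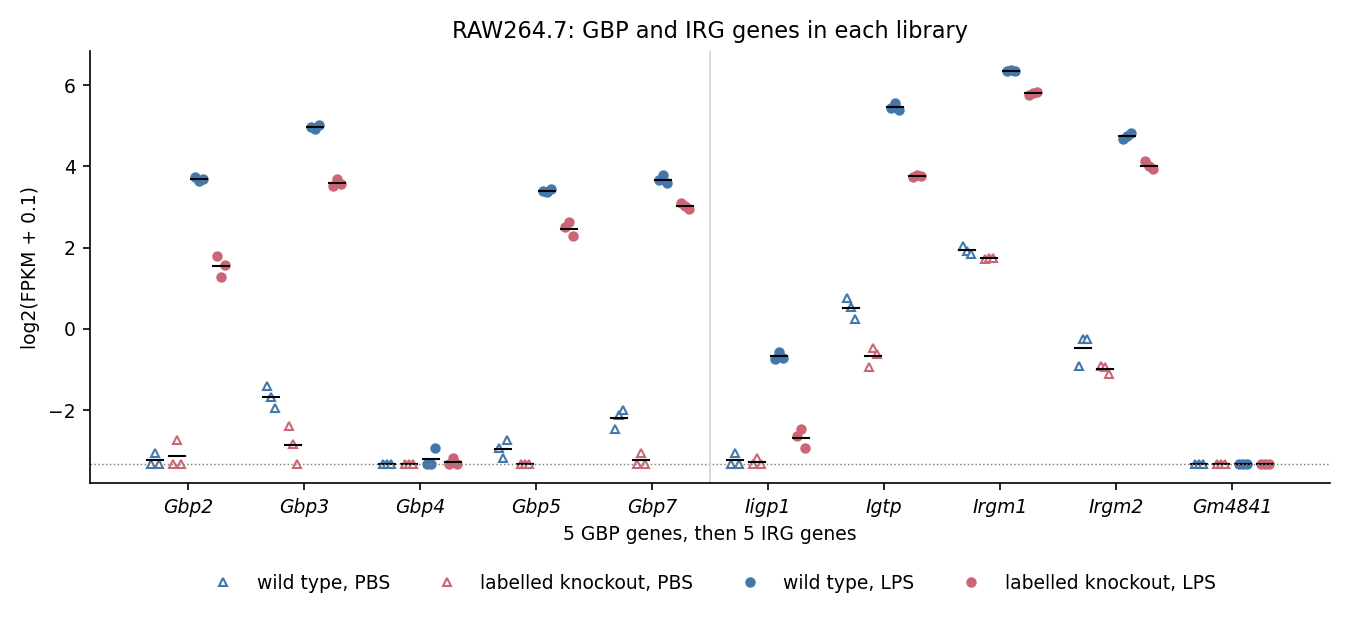
Level of each member in the 12 RAW264.7 libraries, as log2 of FPKM + 0.1, with PBS as open triangles, LPS as filled circles, wild type in blue, labelled knockout in red, group means as black bars and FPKM 0 as a dotted line. Gm4841 was 0 throughout and Gbp4 at or near 0.

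The interaction in RAW264.7 passed for *Gbp2* and *Iigp1*, 2 of 9 members and both downward, beside 1.04% of genes lower and 0.905% higher (279 and 242 genes, or 577 and 343 without labelled-knockout PBS replicate 1). The member median was -0.36 in log2, beside -0.01 for all genes. *Gbp2* had -2.25 (limma, Benjamini-Hochberg adjusted p 0.002) and -2.34 without labelled-knockout PBS replicate 1. *Iigp1* had -1.97 (adjusted p 0.000618, limma) and -1.99 without it. Both genes had at most 2 counts over each PBS group, and edgeR (-2.83 and -2.35) and DESeq2 (-2.89 and -2.21) did not call either. In both tools *Gbp7* passed upward instead, at 3.08 and 3.37, where limma had 0.39, or 0.35 without labelled-knockout PBS replicate 1. *Igtp* (-0.51), *Irgm1* (-0.36), *Gbp5* (-0.57), *Gbp3* (-0.21) and *Irgm2* (-0.21) did not pass, and without that replicate they stood at -0.64, -0.36, -0.57, 0.02 and -0.17. Unlike in BMDM, where *Irgm1* and *Irgm2* passed upward, neither passed in this line, but the lines were not compared by a test.

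Genes of the same families outside the 10 members, where they passed in BMDM, were lower in the knockout with 1 exception. Of 6 other GBPs, 2 were lower with PBS and 5 with LPS, the most abundant being *Gbp9* (14.2 to 5.78 FPKM with PBS, 190 to 93.2 with LPS). *Gbp11* differed by log2 -1.51 with LPS. Of 12 other IRGs, 7 were lower with PBS and 6 with LPS, and *Irgq*, a distant relative, was higher with LPS (1.63 to 2.83 FPKM). *Gm12250* with PBS (14.2 to 3.68 FPKM, log2 -1.92) and *Gm4951* (2.91 to 0.307 with PBS, 71.6 to 29.1 with LPS) were among the larger falls. *Tgtp1* dropped from 20.1 to 4.85 FPKM and *Tgtp2* from 135 to 65.3 with LPS, a near-identical pair whose reads may be split between them. In the labelled-knockout RAW264.7 LPS libraries 2 of 5 tested GBPs were lower, *Gbp2b* (13.2 to 3.92 FPKM) and *Gbp9* (1.05 to 0.51), and 3 of 10 tested IRGs. For these IRGs edgeR called 2 lower, and DESeq2 2 lower and 1 higher. With PBS limma called 0 of either set there, edgeR and DESeq2 each called 1 GBP lower and 3 IRGs higher, and limma without replicate 1 called 3 IRGs higher. Of 6 very large inducible GTPases listed, *Gvin1* was analysed here and the other 5 were not. It was lower in resting knockout BMDM (1.07 to 0.39 FPKM, log2 -1.27), with log2 -0.07 after LPS. In RAW264.7 *Gvin1* had -0.11 with PBS (-0.00 without replicate 1) and -0.03 with LPS.

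Upstream of the members, interferon genes were mostly silent. *Ifng* was listed at 0 in all 24 libraries. With LPS, *Ifnb1* was at 6.53, 7.15 and 4.95 FPKM in wild-type BMDM and 2.34, 2.51 and 2.73 in the knockout, log2 -1.25 (limma, adjusted p 0.00652), without overlap. In RAW264.7 it was at 18.6 and 22.3 FPKM, log2 0.26, and did not pass. Of the 10 tested ligand genes in BMDM (21 listed), 2 were lower with LPS, *Ifnb1* and *Ifna5*, while with PBS limma, edgeR and DESeq2 all called 0. In RAW264.7 limma called 0 of 5 with PBS and with LPS, edgeR and DESeq2 1 lower and 0, and limma without replicate 1 called *Il27* lower (-1.81). Of 7 receptor and kinase genes, all 3 tools called 0 in BMDM, and *Tyk2* was higher in RAW264.7 (0.79 with PBS, 0.96 without replicate 1, when *Jak1* passed too at 0.61, and 0.65 with LPS). Interferon protein was not measured, so ligand and member levels cannot be linked here.

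Among 12 transcription factors, 3 were lower in resting knockout BMDM: *Stat2* (21.6 to 8.72 FPKM, log2 -1.30), *Irf9* (12.5 to 6.62) and *Irf7* (23.5 to 2.05). *Stat2* and *Irf9* encode factors that bind the ISRE, and a link between their levels and those of the members was not tested. With LPS 2 factors were lower, *Irf8* (171 to 40.1 FPKM, log2 -2.09, limma adjusted p 2.26e-07) and *Batf2* (34.7 to 19.9). The counts by edgeR and DESeq2 were 4 lower at rest and 5 after LPS. In RAW264.7, *Irf7* and *Irf9* were lower with PBS (-3.23 and -0.71, or -3.20 and -0.69 without replicate 1, when *Nfkb1* was also higher), and *Irf1*, *Irf7* and *Batf2* with LPS (-0.77, -0.81 and -1.34). Of 8 inhibitors, resting knockout BMDM had *Usp18* lower (8.0 to 1.24 FPKM) and *Socs3* higher (0.76), and with LPS *Socs1* lower (32.4 to 15.6). In RAW264.7 *Socs1* and *Usp18* were lower and *Pias1* higher in both conditions, with PBS also without replicate 1. DESeq2 called 1 inhibitor lower there with PBS, and edgeR and DESeq2 called 2 lower in LPS-treated knockout BMDM.

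Interferon targets were read beside the members, without a test between the lists. Of 20 type I targets, 20 were lower in resting knockout BMDM (median log2 -2.58; *Isg15* 26.4 to 4.06 FPKM) and 7 with LPS (11 with edgeR or DESeq2). Their BMDM interaction passed upward for all 20 (median 2.06), the direction of *Irgm1* and *Irgm2*. Of 14 type II targets 3 were lower with PBS and 3 with LPS (6 with edgeR or DESeq2), the limma calls with LPS being *Cxcl9* (250 to 19.8 FPKM), *Cxcl11* (26.4 to 7.06) and *Serpina3g* (72.1 to 25.2). The type II interaction passed downward for 3 and upward for 0 (2 and 0 with edgeR or DESeq2). With LPS the median was -0.37 for type II and -0.45 for type I targets, beside -0.39 for the members. With PBS it was -0.41 and -2.58, beside -0.94 for the members. The gaps of single members and targets were not compared by a test. In RAW264.7, 13 type I targets were lower and 1 higher with PBS (13 and 2 without replicate 1), and 9 lower and 1 higher with LPS. Of 13 tested type II targets, 3 were lower and 1 higher with PBS (4 and 1 without replicate 1), and 5 lower with LPS, among them *Cxcl10* (283 to 79.5 FPKM).

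**Figure D5:**
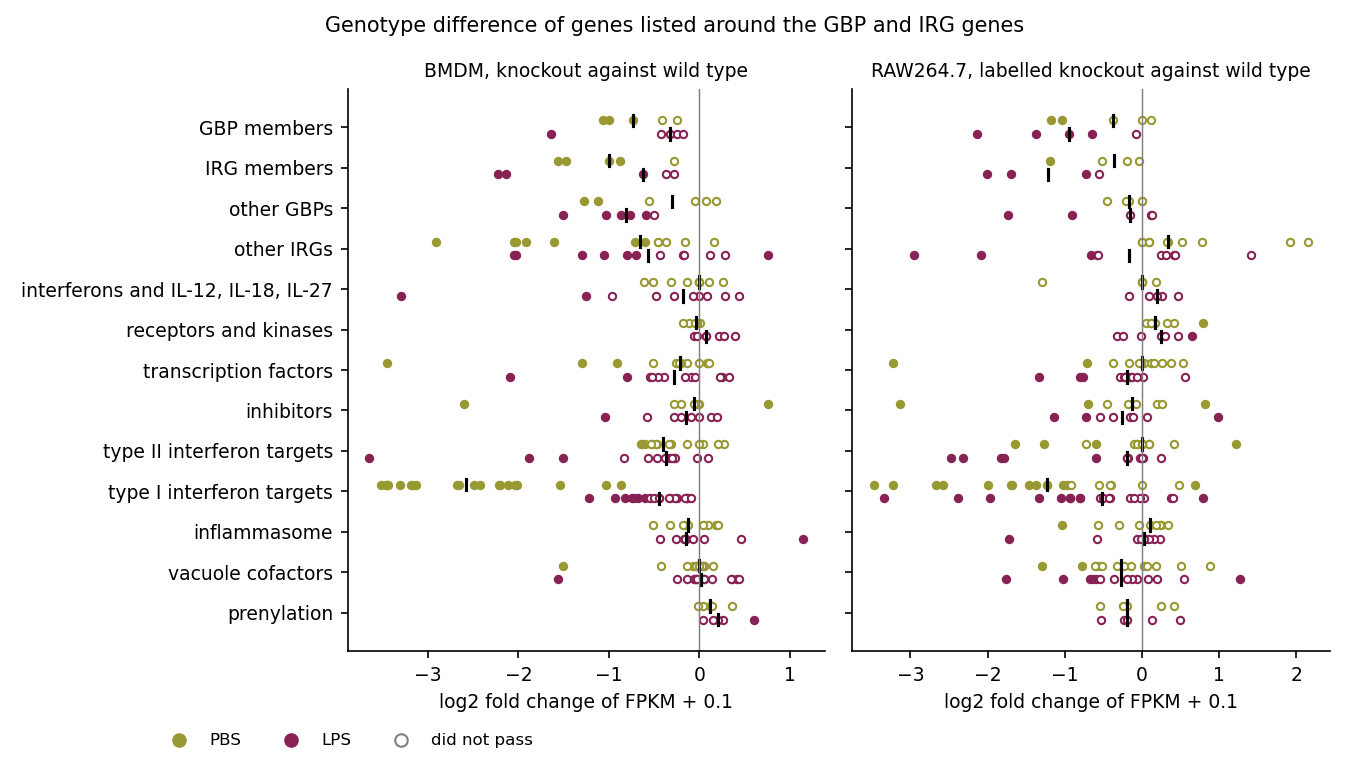
Genotype log2 fold change of each gene in the member families and in the lists around them, filled where the test was passed, with list medians as black bars. In BMDM the type I interferon targets had a median of -2.58 with PBS and -0.45 with LPS.

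Genes that act with the members were read next. Of 9 inflammasome genes, limma, edgeR and DESeq2 called 0 in resting BMDM, and with LPS *Il1b* was higher (723 to 1610 FPKM), while *Casp4*, the sensor that GBPs serve, was at 76.1 and 67.5 FPKM and did not pass. In RAW264.7 *Ninj1* was lower with PBS (-1.04, or -1.28 without replicate 1) and LPS (-1.72), and the PBS count was 1 without replicate 1 too. Of 15 tested vacuole cofactors in BMDM, *Rnf213* was lower with PBS (45.8 to 16.0 FPKM) and the trace gene *Ubd* with LPS, where edgeR and DESeq2 called 0. In RAW264.7, 3 of 14 were lower with PBS, beside 3.77% of all genes, and 5 lower and 1 higher with LPS, beside 7.6% and 9.73%. Without replicate 1, 6 were lower and 2 higher with PBS, while all passing genes went from 2287 to 5496. Of 5 enzymes of the prenylation pathway, which modifies *Gbp2* and *Gbp5* proteins, limma, edgeR and DESeq2 called 0 in resting BMDM and in RAW264.7 with LPS. *Fntb* was higher in LPS-treated knockout BMDM with limma (0.757 to 1.23 FPKM) and not with edgeR or DESeq2. With PBS in RAW264.7 all 3 tools called 0, and limma without replicate 1 called *Rce1* lower (-0.71).

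Marker genes were read to see what the libraries contained. Macrophage markers summed to 15200 FPKM in wild-type and 17500 in knockout BMDM with PBS and 12600 and 13200 with LPS. Most of each sum was *Lyz2*, at 12300 and 14900 FPKM with PBS and 9960 and 10800 with LPS. The median log2 difference of the 10 markers was -0.13 with PBS and -0.02 with LPS. Limma called 1 gene, *Fcgr1*, lower in each (119 to 53.4 FPKM with PBS), and edgeR and DESeq2 each called 2 lower with LPS. In RAW264.7 they summed to 3520 and 1370 FPKM with PBS and 4180 and 1450 with LPS. Of the 9 tested, 5 were lower in each condition and also without replicate 1, led by *Lyz2* (2050 to 317 FPKM with PBS). *Csf1r* (263 to 340 FPKM) and *Fcgr1* (18.3 to 22.1) had higher means with PBS, and neither passed. With LPS their means were lower (100 to 78.5 and 22.3 to 7.96 FPKM). In bulk RNA, fewer cells of a kind and less RNA in each cannot be told apart. T and NK markers summed to 12 FPKM in wild-type and 3.97 in knockout BMDM with LPS, nearly all of it *Lck* (11.8 and 3.79). *Cd3e* and *Trac* were 0 in every library, while *Cd247* reached 1.35 FPKM in wild-type RAW264.7 with LPS and 0.207 in wild-type BMDM with LPS, and *Gzma* had 15 counts in labelled-knockout PBS replicate 2. In BMDM with PBS all 3 tools called 0 of these markers, and in RAW264.7 1 was lower with PBS (1 also without replicate 1) and 2 with LPS. B-cell markers were mostly *Ighm* (RAW264.7 155 and 320 FPKM with PBS), higher in the labelled knockout in both conditions and without replicate 1. Between genotypes in BMDM all 3 tools called 0 of them.

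Dendritic markers in RAW264.7 summed to 1.42 FPKM in wild type and 9.76 in the labelled knockout with PBS, mostly *Siglech* (1.12 and 9.21). One passed with PBS (1 also without replicate 1) and 4 with LPS, and in BMDM *Batf3* was lower with LPS while all 3 tools called 0 with PBS. Neutrophil and progenitor markers summed to 6.91 FPKM in wild-type and 7.61 in knockout BMDM with PBS, where limma called 0 and edgeR and DESeq2 1 higher, and with LPS 1 was higher. In RAW264.7 limma and DESeq2 called 0 of them, with edgeR's filter removing all. Stromal markers summed to 1.29 and 1.39 FPKM in BMDM with PBS, where all 3 tools called 0. With LPS limma called 1 higher, and edgeR and DESeq2 each called 1 higher and 1 lower. Between genotypes in RAW264.7 all 3 tools called 0 stromal genes.

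Genes whose levels ran most like the mean of the members at 1 FPKM or more (9 in BMDM, 7 in RAW264.7) were listed as a description, without a test. In BMDM the closest were *Gm6377* (r 0.9995), *Lacc1* (r 0.9994), *Gbp6* (r 0.9993) and *Slc28a2* (r 0.9992) over 12 libraries, with *Tbk1* at 0.9988. *Gbp6*, a GBP outside the 10, had mean levels of 0.353, 0.107, 24.4 and 16.2 FPKM in wild-type PBS, knockout PBS, wild-type LPS and knockout LPS. In RAW264.7 they were *Cxcl10* (r 0.9987), *Atf3* (r 0.9975), *Cxcl2* (r 0.9974) and *Lif* (r 0.9969), with *Gbp2b* at 0.9965. *Cxcl10* had 0.887, 0.303, 283 and 79.5 FPKM in the same order. Both genes were far more abundant with LPS than with PBS in both genotypes.

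Several readings have limits. Whether libraries of the genotypes overlapped was read gene by gene, and the share of all genes without overlap is not given here. The deposited span of *Igtp* (8036 bases) shared 7974 bases with that of *Irgm2* (23165), and the strand of counting was not stated, so reads of one may be counted for the other. Promoters of *Gbp4*, *Iigp1* and *Gm4841* were not analysed here. The transcript of *Olfml3* rose with the knockout label in RAW264.7, so the differences there belong to the labelled libraries. They may also belong to the clone or clones behind them. GTPase protein, vacuole loading and interferon secretion were not measured, and none of the 24 libraries came from rescued cells. One LPS dose and 1 time point were sampled, so a delay and a lasting loss cannot be told apart.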

How the data were processed

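The authors deposited counts and FPKM for RAW264.7 and for BMDM, and the deposited FPKM were used for levels and for limma. FPKM recomputed from the deposited counts matched within 1% in 99.9% (RAW264.7) and 99.5% (BMDM) of values over 50 counts. For the aligner and the counting tool: not given in the sources used here. Submitters' processing notes name mm10, but gene positions in the tables are not those of GRCm38, so the build behind them is unsettled. Promoters came from RefSeq GRCm38.p6 by gene symbol.

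limma was fitted per model to log2(FPKM + 0.1) with 4 group means over 12 libraries (residual df 8, prior df 1.43 in RAW264.7 and 1.28 in BMDM). Genes above 0 in at least 1 library were tested, and 2639 genes had no symbol. Ratios of counts used a floor of 3 counts over a group. Alternatives were pseudocounts 0.01 and 1, FPKM filters of 1 and 0.1 in 3 libraries, TPM and median-ratio scaling, an intensity trend, compared groups alone, a replicate block, edgeR with and without its filter, DESeq2, adjusted p alone, and each library left out.

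The members and the lists were chosen with earlier results of these data known. The lists were other GBPs, other IRGs, large inducible GTPases, ligands, receptors and kinases, transcription factors, inhibitors, type II and type I targets, inflammasome genes, vacuole cofactors, prenylation enzymes, and markers of macrophages, T and NK cells, B cells, neutrophils and progenitors, dendritic cells and stroma. One gene planned for the list of transcription factors is not reported here, and counts of that list leave it out. Genes named beyond the members were those on a list or among the closest by correlation. The shares of all genes given for the members also apply to the list counts of the same comparison and tool.

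Tools were R 4.3.3, limma 3.58.1, edgeR 4.0.16, DESeq2 1.42.0, data.table (version 1.17.8), Python 3.11.15, pandas 2.3.3, scipy 1.17.1 and matplotlib 3.10.9.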

Additional observations from a re-analysis of the deposited data

Results flagged for a closer look

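The limma test of the difference between genotype effects, LPS minus PBS, singled out 5 members. In RAW264.7 *Gbp2* had a log2 value of -2.25 and *Iigp1* of -1.97, and edgeR and DESeq2 called neither. In BMDM *Irgm1* had 0.93 and *Irgm2* 0.72. *Gm4841* in BMDM had -1.86, with 0.55 by edgeR and 0.11 by DESeq2. No cause was tested for any of them.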

How the results depend on the processing

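Single-member results were the same in 1763 settings, stronger in 46, weaker in 31, moved without a call in 37 and reversed in 3. The reversed ones were the BMDM interaction of *Gm4841*: 0.55 with edgeR, 0.58 with edgeR without filter and 0.11 with DESeq2, against -1.86.

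The count of members lower in labelled-knockout RAW264.7 with PBS went from 3 to 1 with pseudocount 1 and to 5 with edgeR, edgeR without filter or DESeq2. *Gbp3* also lost its call with compared groups alone (-1.18) and pseudocount 0.01 (-2.59), and *Gbp5* gained one with TPM scaling (-0.83) and pseudocount 0.01 (-1.86). With LPS the count went from 7 to 3 with pseudocount 0.01 and to 4 with TPM scaling. The first setting lost *Gbp2* (-2.18), *Gbp3* (-1.39), *Gbp5* (-0.95) and *Gbp7* (-0.65) at nearly unchanged folds. TPM scaling lost *Gbp3* (-1.16), *Gbp7* (-0.42) and *Irgm2* (-0.50). The RAW264.7 interaction count went from 2 to 0 with pseudocount 0.01 (edgeR and DESeq2 gave 1), to 4 with pseudocount 1, and to 1 with the filter of FPKM of at least 1 in 3 libraries or TPM scaling. With edgeR, edgeR without filter and DESeq2 it was 1, *Gbp7* upward at 3.08, 3.06 and 3.37. In BMDM with LPS adjusted p alone moved 4 to 9. The BMDM interaction count moved from 3 to 5 with pseudocount 1, with median-ratio scaling and without knockout PBS replicate 3, and to 6 with adjusted p alone. Other single libraries left out gave 3 to 4 of 9 members in RAW264.7 with PBS and 7 to 8 for LPS in the labelled knockout.

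Without labelled-knockout PBS replicate 1 the genes passing in RAW264.7 with PBS went from 2287 to 5496, and the interaction from 521 to 920. Leaving out another RAW264.7 PBS library gave 1299 to 1465 genes with PBS, and compared groups alone 942. TPM scaling moved the share higher among passing RAW264.7 genes from 56.0% to 68.9% with PBS and from 56.1% to 75.0% with LPS. Pseudocount 1 gave 1474 with PBS and 3054 against 4636 with LPS. In BMDM pseudocount 1 moved 490 to 256 with PBS and 1285 to 439 with LPS. Median-ratio scaling moved the share higher among passing BMDM genes from 67.9% to 43.3% for genotype with LPS, and from 19.6% to 48.0% for LPS in wild type. Correlations between equal replicate numbers ran from -0.106 to 0.19, and a replicate block kept every member count.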
